A study of Mus musculus with 12 samples.

Results

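The genes described are 10 genes of the matricellular and provisional matrix, namely Fn1, Thbs1, Tnc, Sparc, Postn, Tgfbi, Vcan, Fbln1, Fbn1 and Eln, chosen by gene symbol from the 23238 symbols in the count files, of which 17480 had a count in any library. After bleomycin (BLM), 6 of the 10 genes (Eln, Fn1, Sparc, Thbs1, Tnc and Vcan) were called higher in alveolar type II (ATII) cell preparations of mice with intact p300 alleles, with a change over 1.5-fold and p below 0.05 before adjustment, as were 2.19% of all tested genes. Thbs1 rose from a mean of 31.3 CPM (counts per 1000000 counts of the library) in Con to 321.2 CPM in BLM. In mice labelled as p300-deleted, Thbs1 reached 86.5 CPM after bleomycin and was the 1 member called lower than in BLM. Tgfbi, Postn, Fbln1 and Fbn1 were called in no comparison by the main edgeR fit with all libraries. With other edgeR settings on all libraries, Fbn1 was called in some comparisons. No member passed an adjusted p of 0.05 in edgeR, where the biological coefficient of variation between mice of a group was 1.44.

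Matricellular proteins are secreted proteins that bind both the fibres of the extracellular matrix and receptors on cells, and that act on adhesion and growth factor activity more than on the strength of the tissue. Provisional matrix is the loose network rich in fibronectin, tenascin-C and versican that is laid down in a wound and later replaced or hardened by collagen. In the lung, elastin and the fibrillin microfibrils carry the recoil of the alveolar wall, and fibroblasts, myofibroblasts and smooth muscle cells are the usual sources of these fibres, while macrophages and platelets hold several of the matricellular proteins.

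RNA was measured in cells sorted as ATII cells, the surfactant-producing cells of the alveolus. The sort used flow cytometry with antibodies to CD74 and EpCAM. There were 4 groups of 3 mice: Con (p300 alleles intact, PBS), BLM (p300 alleles intact, bleomycin), KO (p300 knockout, PBS) and KOBLM (p300 knockout, bleomycin), with 1 library per mouse. p300, encoded by Ep300, is a histone acetyltransferase. Its exon 9 was flanked by loxP sites in the Spc-p300 f/f line, in which a tamoxifen-inducible Cre under the Spc promoter, active in ATII cells, removes it. Mice were 8 weeks old when tamoxifen (10 mg/kg) was given to delete the gene, and PBS or 4 mg/kg bleomycin, a DNA-breaking drug that injures the lung, was then instilled into the trachea. The labels call the Con mice wild type and the paper's sorting method names C57BL/6 mice, while its Results give the controls the floxed alleles. Vehicle is named as the counterpart of tamoxifen in a qRT-PCR assay of such cells, and which of these the sequenced Con and BLM mice received is not given in the sources used here.

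The libraries held 7005005 to 11153154 counts each, and a detection floor of 3 counts was used, which equals 0.269 to 0.428 CPM. This floor reflects counting error alone, as the sources name no molecular identifiers that would count molecules rather than reads. The kit reads the 3′ end of transcripts, so CPM were compared between genes without a correction for length. Ep300 lay between 51.0 and 143.4 CPM in Con, 42.6 and 118.8 CPM in BLM, 103.0 and 154 CPM in KO, and 54.2 and 169.4 CPM in KOBLM, but these 3′ counts lie outside exon 9 and check neither label. The 12 ATII markers summed to 643 to 3644 CPM, of which Cd74, the MHC class II invariant chain that macrophages also carry, made 460 to 2247 CPM. The other 11 summed to 674 to 2069 CPM in Con and to 456 to 889 CPM in BLM. Among them the surfactant gene Sftpc stood at 138.7 to 612 CPM in Con and at 18.1 to 73.7 CPM in BLM. It stood at 11.1 to 136.2 CPM in KO and at 0.554 to 105.5 CPM in KOBLM. Not all followed Sftpc: Napsa was at 103.8, 121.6 and 40.4 CPM in Con and at 213.8, 288 and 52.0 CPM in BLM. Epcam was at 82.7 to 200.8 CPM in Con and at 9.57, 35.8 and 328.7 CPM in BLM. The 17 macrophage markers, such as Chil3, summed to 2431 to 40731 CPM. In every library this sum was above that of the 12 ATII markers, so the levels below cannot be assigned to ATII cells alone. The 14 fibroblast markers summed to 107 to 469 CPM in Con, 1134 to 1942 CPM in BLM, 46.9 to 493 CPM in KO and 181 to 834 CPM in KOBLM. BLM 3 stood apart, with Spearman coefficients across genes of 0.529 and 0.535 with BLM 1 and BLM 2, against 0.746 to 0.898 for all other pairs within a group. It also held 6847 detected genes, the lowest number, and 3520 CPM of 20 pluripotency genes, against at most 663 CPM in any other library. Klf2 alone made 644 of those 663 CPM, in KOBLM 1, but 339.5 of the 3520 CPM in BLM 3. Of these 20 genes, Zfp42, Esrrb, Fgf4 and Nr0b1 had no count in any library. Results that rest on BLM 3 are therefore given with and without it. In such bulk samples, fewer cells of a type and less RNA per cell cannot be told apart.

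The 10 genes differed widely in level. Fn1 was the most abundant, with a mean of 701 CPM over the 12 libraries, followed by Tgfbi with 609 CPM. Their highest library was 5.15-fold and 5.08-fold above their lowest. Sparc (199.7 CPM), Thbs1 (116 CPM), Eln (70.8 CPM), Vcan (47.2 CPM) and Fbn1 (34.0 CPM) followed. Their libraries lay much further apart, and Eln ran from 0.740 to 374 CPM. Tnc had 0 counts in 7 of the 12 libraries and Fbln1 in 8. Postn was above the floor in 7 libraries and Fbln1 in 4. All 10 genes passed the low-count filter of edgeR. In KO, Fn1 and Tgfbi together made up 90.7% to 95.7% of the summed CPM of the 10 genes, and in BLM 30.5% to 68.7%.

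**Figure D1:**
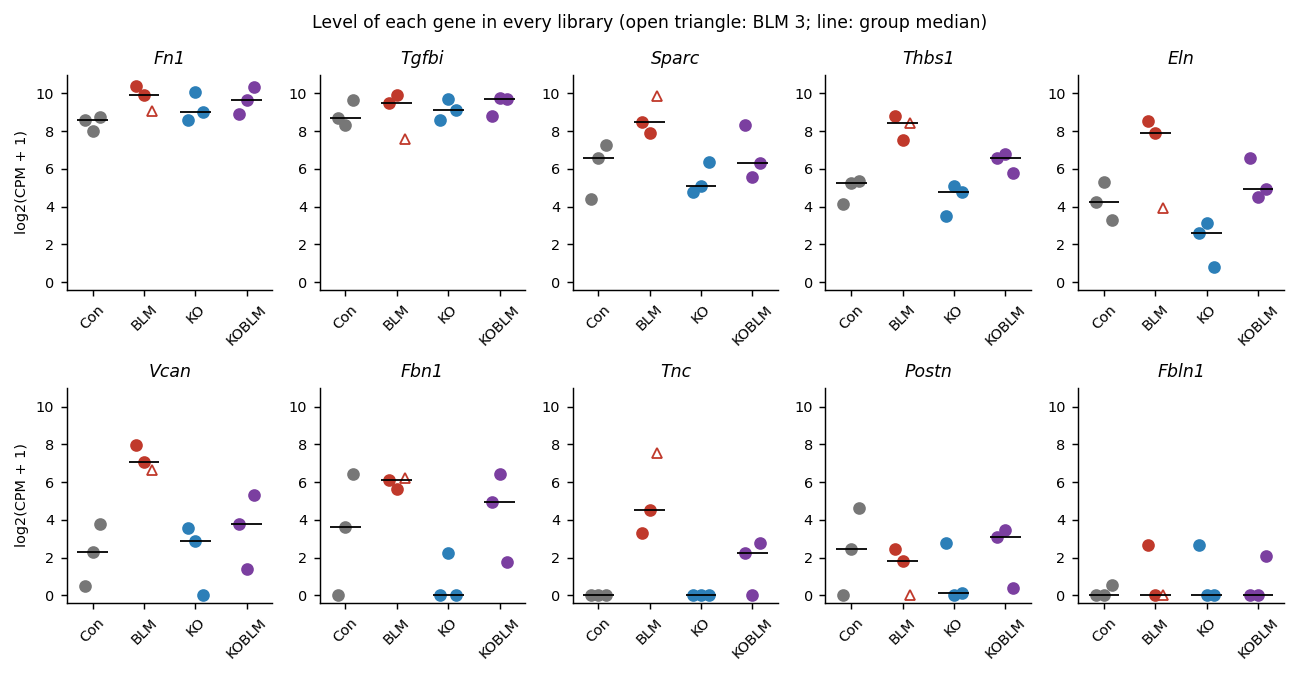
Level of each gene, as log2(CPM + 1), in the 3 libraries of each group; points are single mice, the open triangle is BLM 3 and the line is the group median. Thbs1, Sparc, Vcan, Tnc and Fn1 in BLM lie above every Con library, whereas the Tgfbi points of the groups overlap, and Tnc is at 0 in Con and KO.

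The first comparison asked what bleomycin changed where the p300 alleles were intact. A gene was called when its fold change was over 1.5 at an unadjusted p under 0.05 in edgeR's quasi-likelihood test. Of the 10 members, 6 were called higher and 0 lower, beside 2.19% of the 13054 tested genes called higher. The median log2 fold change of the members was 2.90, against -0.08 over all tested genes, and it was the same with Tnc set to its lower bound. In 5 members (Fn1, Thbs1, Tnc, Sparc and Vcan) every BLM library lay above every Con library, beside 5.32% of the tested genes. Without BLM 3, the same 6 members were called, beside 2.94% of the tested genes called higher.

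Thbs1 (chr2:118111876-118127133, + strand, 22 exons) encodes thrombospondin 1, a platelet and stromal glycoprotein that can activate latent TGF-β and inhibits the growth of vessels. Its level was 16.9, 37.3 and 39.6 CPM in Con and 439, 183 and 342 CPM in BLM. The groups did not overlap. The mean rose from 31.3 ± 7.23 to 321.2 ± 74.6 CPM (mean ± s.e.m., n = 3), which was 10.3-fold and 9.95-fold without BLM 3. The log2 fold change in edgeR was 3.35 ± 0.70 (SE; adjusted p = 0.900), and Thbs1 was called in all 11 alternative fits (other scalings, no filter, DESeq2, the replicate block, or 1 library left out). The exact permutation test gave p = 0.1, the smallest value that 3 mice against 3 allow.

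Vcan (chr13:89655312-89742509, - strand, 15 exons) encodes versican, a large chondroitin sulfate proteoglycan that binds hyaluronan in provisional matrix. It was low in Con, at 0.401, 3.85 and 12.5 CPM, of which only Con 1 was at the floor. In BLM it stood at 249, 131 and 99.6 CPM, so that the lowest BLM library was well above the highest Con library. The mean of 159.8 ± 45.3 CPM was 28.6-fold that of Con, 5.60 ± 3.61 CPM (mean ± s.e.m., n = 3). The log2 fold change was 4.90 ± 1.76 (edgeR, adjusted p = 0.995), and it was called in all 11 alternative fits.

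Tnc (chr4:63959785-64047015, - strand, 26 exons) encodes tenascin-C, a hexameric glycoprotein that is nearly absent from healthy adult tissue and appears in wounds. It had 0 counts in all 3 Con libraries. In BLM it had 63, 167 and 2064 counts, or 8.99, 22.0 and 185.1 CPM. Every BLM library was thus above the floor, but BLM 3 held most of the signal. Set against the floor of 3 counts per library, the BLM mean was at least 215-fold higher, and at least 46.3-fold higher without BLM 3. Tnc was called with and without BLM 3 (edgeR, adjusted p = 0.995 and adjusted p = 0.798). The gene 8030451A03Rik lies on the opposite strand over last exons of Tnc, and how strand was treated in counting is not given in the sources used here, so reads of the pair may not be separable.

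To show the sequence before the start of members that rose and of a member that did not, the 250 bases upstream of a RefSeq start site (GRCm38.p6) follow, 5′ to 3′ on the gene's strand. They are those of Tnc, start site 1 of 2, at chr4:64047016-64047265 (- strand), Vcan at chr13:89742513-89742762 (- strand) and Postn, start site 2 of 2, at chr3:54360857-54361106 (+ strand). Capitals mark matches on either strand to the C/EBP motif TTNCNNAA or the TATA box TATAAA.
Tnc: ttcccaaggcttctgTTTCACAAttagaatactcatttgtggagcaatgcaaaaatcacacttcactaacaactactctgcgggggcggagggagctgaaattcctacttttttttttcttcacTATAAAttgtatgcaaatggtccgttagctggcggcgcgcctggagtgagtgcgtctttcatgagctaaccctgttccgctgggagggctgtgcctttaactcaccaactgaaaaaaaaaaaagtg
Vcan: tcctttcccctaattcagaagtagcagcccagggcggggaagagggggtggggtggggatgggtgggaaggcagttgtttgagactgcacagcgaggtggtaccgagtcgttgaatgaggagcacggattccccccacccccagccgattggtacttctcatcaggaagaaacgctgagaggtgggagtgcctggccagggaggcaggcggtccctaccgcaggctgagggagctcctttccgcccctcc
Postn: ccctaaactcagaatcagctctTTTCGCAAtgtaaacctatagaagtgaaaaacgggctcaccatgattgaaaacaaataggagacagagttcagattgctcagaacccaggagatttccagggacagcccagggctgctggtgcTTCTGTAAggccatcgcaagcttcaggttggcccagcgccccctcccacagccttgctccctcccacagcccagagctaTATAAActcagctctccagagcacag
The Tnc sequence holds a C/EBP match that begins 235 bases before the start and a TATA box match at 126 bases, and Postn holds 2 C/EBP matches and a TATA box match at 26 bases, the usual distance of that element. Vcan holds no match to these motifs. The matches depend on the start site: start site 2 of Tnc has no C/EBP match and a TATA box match at 205 bases. Start site 1 of Postn has 3 C/EBP matches and no TATA box match. Over all 32851 RefSeq promoters, each 250 bases before to 50 after a start, 40.7% held the C/EBP letters and 13.6% the TATA box letters. The other motifs searched on both strands were the AP-1 motif TGANTCA, in 7.81% of the promoters and in none of the 10 listed for 7 members (Tnc, Sparc, Postn, Tgfbi, Vcan, Fbln1 and Fbn1), and the SMAD motif CAGACA, in 21.04% of the promoters. The SMAD letters were found for Tnc, Sparc and Fbln1. These matches are descriptions of letters only.

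Sparc (chr11:55394500-55423183, - strand, 10 exons) encodes osteonectin, a collagen-binding glycoprotein that aids the assembly of collagen fibrils. It stood at 20.2, 93.7 and 151.9 CPM in Con and at 362, 242 and 940 CPM in BLM, without overlap. The mean was 5.81-fold higher, and 3.41-fold higher without BLM 3, which held the highest level of all libraries. The log2 fold change was 2.45 ± 0.86 (edgeR, adjusted p = 0.995) and 1.91 ± 0.81 without BLM 3 (adjusted p = 0.864). Sparc was called in all 11 alternative fits.

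Fn1 (chr1:71585520-71653200, - strand, 46 exons) encodes fibronectin, the glycoprotein that is among the first to fill a wound and that cells bind through integrins. It was already abundant in Con, at 382, 257 and 424 CPM, and rose to 1324, 949 and 538 CPM in BLM. The groups did not overlap, and BLM 3 was the library nearest to Con. The log2 fold change was 1.48 ± 0.59 (edgeR, adjusted p = 0.995) and 1.82 ± 0.51 without BLM 3 (adjusted p = 0.440). The call of Fn1 was lost when Con 1, Con 2, BLM 1 or BLM 2 was left out, with log2 fold changes no lower than 1.13.

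Eln (chr5:134702593-134747323, - strand, 37 exons) encodes tropoelastin, the monomer of elastic fibres. Con libraries held 17.7, 38.3 and 8.86 CPM, and BLM libraries 374, 239 and 14.3 CPM. BLM 3 lay within the range of Con, whereas BLM 1 and BLM 2 lay above it. The log2 fold change was 3.37 ± 1.22 (edgeR, adjusted p = 0.995) and 3.93 ± 0.94 without BLM 3 (adjusted p = 0.296). The call was lost without Con 3 or without BLM 1, with a lowest log2 fold change of 2.70.

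The remaining 4 members were not called. Tgfbi (chr13:56609523-56639562, + strand, 17 exons), a TGF-β-induced protein that binds collagen and integrins, was at 414, 320.1 and 795 CPM in Con and at 721, 954 and 188 CPM in BLM. BLM 3 held the lowest Tgfbi level of all libraries, and the log2 fold change of 0.42 ± 0.64 (edgeR, adjusted p = 1.0) was 0.88 ± 0.48 without it (adjusted p = 0.890). Fbn1 (chr2:125300594-125507993, - strand, 65 exons), which encodes the microfibril protein fibrillin 1, was at 0, 11.2 and 84.0 CPM in Con and at 69.0, 48.4 and 73.5 CPM in BLM. The Con libraries of Fbn1 thus spanned the whole range, with a log2 fold change of 1.03 ± 1.98 (adjusted p = 1.0), which was 3.42 without Con 3. Postn (chr3:54361109-54391037, + strand, 22 exons) encodes periostin, a matricellular protein of fibrotic lung, and stood at 0, 4.60 and 23.9 CPM in Con and at 4.57, 2.51 and 0 CPM in BLM. Its libraries lay between 0 and a few CPM in both groups, apart from Con 3. Fbln1 (chr15:85205949-85286535, + strand, 17 exons), which encodes fibulin 1, a protein of elastic fibres and basement membranes, had counts in 1 library of each group only (5 in Con 3, 38 in BLM 1, 53 in KO 1 and 29 in KOBLM 3), and no fold change is printed for it, although its fitted values enter the medians over the 10 members.

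**Figure D2:**
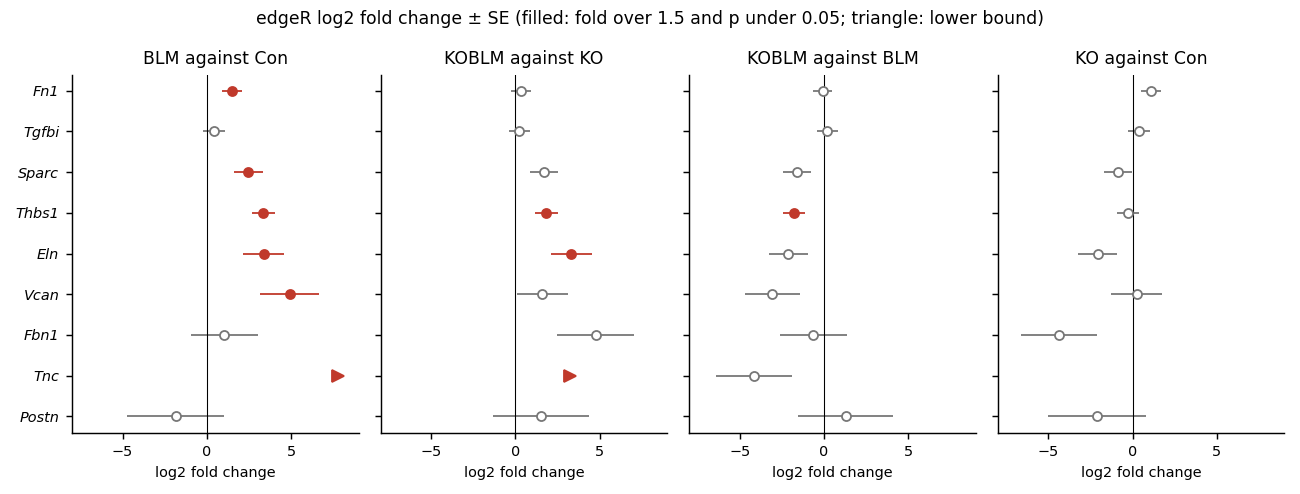
Log2 fold change from edgeR with its standard error for each gene in the 4 comparisons of groups of 3 libraries; filled red points were called, open grey points were not, and triangles give the lower bound for Tnc where the compared group had 0 counts. Fbln1 is left out, and Tnc has no value for KO against Con. The filled points lie to the right of 0 after bleomycin in both genotypes, and Thbs1 alone is filled to the left of 0 in KOBLM against BLM, at -1.80.

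The next comparison asked what bleomycin changed in mice labelled as p300-deleted. In KOBLM against KO, 3 members (Eln, Thbs1 and Tnc) were called higher, beside 1.16% of the tested genes. Only for Thbs1 and Eln did every KOBLM library lie above every KO library, beside 3.95% of the tested genes. Without BLM 3, which shares the estimate of the spread, 5 were called (Sparc and Fbn1 as well), beside 2.02%. The members' median log2 fold change was 1.65, against 0.08 over all tested genes. Thbs1 was at 10.3, 33.5 and 26.4 CPM in KO and at 95.5, 108.9 and 55.0 CPM in KOBLM. Its log2 fold change was 1.84 ± 0.66 (edgeR, adjusted p = 1.0), and the call was lost without KO 1. Eln, with 4.97, 7.83 and 0.740 CPM in KO and 93.8, 21.8 and 29.6 CPM in KOBLM, had a log2 fold change of 3.32 ± 1.23 (adjusted p = 1.0). Its call was lost without KOBLM 1, the library with the highest level of the group. Tnc had 0 counts in KO and 28, 0 and 52 counts in KOBLM, so that the KOBLM mean of 3.17 CPM was at least 9.57-fold higher, in 2 of 3 libraries.

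The other members were not called there in the main fit with all libraries. Fn1 was at 391, 1062 and 517 CPM in KO and at 477, 789 and 1296 CPM in KOBLM, with overlap of the groups and a log2 fold change of 0.32 ± 0.58 (edgeR, adjusted p = 1.0). Vcan was at 10.8, 6.32 and 0 CPM in KO and at 12.7, 1.64 and 38.8 CPM in KOBLM, and the groups overlapped (log2 fold change 1.60 ± 1.54). Sparc was at 26.2, 33.6 and 82.7 CPM in KO and at 319.6, 46.1 and 77.7 CPM in KOBLM. A single KOBLM library thus lay above the KO range, and the log2 fold change was 1.71 ± 0.84 (adjusted p = 1.0), and 1.71 ± 0.75 without BLM 3 (adjusted p = 0.903), a call. Fbn1 had 27 counts in KO 2 and 0 in the other KO libraries, and 224, 894 and 22 counts in KOBLM (adjusted p = 1.0). It was called there by DESeq2, and by edgeR scaled by library size alone, with no filter, or without BLM 3 (adjusted p = 0.903 in the last). Tgfbi lay between 383 and 836 CPM in KO and between 441 and 873 CPM in KOBLM.

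The comparison of KOBLM with BLM asked how bleomycin-treated mice differed by genotype. Thbs1 alone was called, as lower, which was 1 member of 10 beside 1.78% of the tested genes called lower. Without BLM 3 these were 3 members (Eln, Thbs1 and Vcan), beside 1.58%. In 3 members (Thbs1, Tnc and Vcan) every KOBLM library lay below every BLM library, beside 4.98% of the tested genes. The members' median log2 fold change was -1.12, against 0.10 over all tested genes, and 8 of the 10 fitted values were negative. The BLM mean of Thbs1 was 3.71-fold that of KOBLM, and 3.59-fold without BLM 3. Its log2 fold change was -1.80 ± 0.66 (edgeR, adjusted p = 1.0), and the call was lost without BLM 1 or without KOBLM 3, where the smallest change was -1.43.

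Several of the genes that rose after bleomycin had lower values in KOBLM without passing the test. Vcan had a log2 change of -3.06 ± 1.62 (edgeR, adjusted p = 1.0), and of -3.38 ± 1.57 without BLM 3 (adjusted p = 1.0), where it was called. Eln had -2.12 ± 1.16 (adjusted p = 1.0), and -2.68 ± 0.91 without BLM 3 (adjusted p = 1.0), also a call. For these genes the high level of BLM 1 and BLM 2 was not matched by any KOBLM library, while BLM 3 lay lower. Tnc and Sparc went the other way. Tnc had -4.16 ± 2.26 with BLM 3 (adjusted p = 1.0) and -2.30 ± 3.003 without it (adjusted p = 1.0), and Sparc -1.59 ± 0.84 with it (adjusted p = 1.0) and -1.05 ± 0.80 without it (adjusted p = 1.0). Fn1, the most abundant member, had -0.08 ± 0.58 (adjusted p = 1.0).

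**Figure D3:**
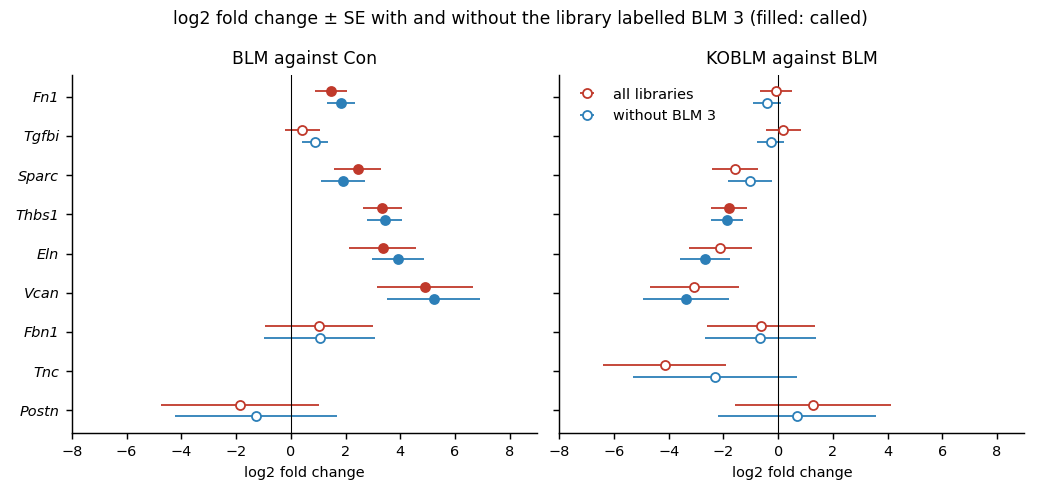
Log2 fold change from edgeR with its standard error for BLM against Con (left) and KOBLM against BLM (right), with all libraries (red) and without BLM 3 (blue); filled points were called. Tnc is left out on the left, where Con had 0 counts, and Fbln1 in both. In BLM against Con the filled genes are the same with and without BLM 3, and in KOBLM against BLM only Thbs1 is filled with all libraries, while Eln and Vcan are filled as well without BLM 3.

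Without bleomycin, the main edgeR fit called 0 members in KO against Con. Its calls at an unadjusted p under 0.05 covered 1.44% of the tested genes. Without BLM 3, which is in neither group but shares the estimate of the spread, 2 were called, Eln as lower and Fn1 as higher, beside 2.51%. DESeq2 called 1 member, Fbn1, as lower, beside 2.87% of the tested genes. With no filter on low counts, edgeR also called Fbn1 lower, beside 1.31%. The members' median log2 fold change was -0.14, close to the -0.09 over all tested genes. Eln was the member whose KO libraries all lay below the Con libraries, beside 7.56% of the tested genes, with a log2 fold change of -2.07 ± 1.17 (edgeR, adjusted p = 1.0), and of -2.08 ± 0.85 without BLM 3 (adjusted p = 0.982). Fbn1 had -4.35 ± 2.26 (adjusted p = 1.0) and 1 KO library above the floor. Its value rested on Con 3, without which it was -1.96, and edgeR called it without KO 2, where the KO counts left were 0. Fn1 had 1.08 ± 0.58 (adjusted p = 1.0), and 1.07 ± 0.47 without BLM 3 (adjusted p = 0.982), with KO 2 and KO 3 above the Con range. Tnc had 0 counts in all 6 libraries.

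Averaged over both genotypes, with 6 mice on each side, 6 members (Eln, Fn1, Sparc, Thbs1, Tnc and Vcan) were called higher after bleomycin, beside 2.72% of the tested genes, and the same 6 without BLM 3, beside 4.47%. These comparisons share libraries with those above and are not independent of them. Thbs1 was the member whose 6 bleomycin libraries (55.0 to 439 CPM) all lay above the 6 PBS libraries (10.3 to 39.6 CPM), which held for 0.115% of the tested genes. Its log2 fold change was 2.59 ± 0.48 (edgeR, adjusted p = 1.0), and the exact permutation test of 6 against 6 gave p = 0.00216, the smallest value it can give. The exact permutation p was 0.0152 for Tnc, 0.0216 for Vcan, 0.0303 for Sparc and for Eln, and 0.0736 for Fn1. The adjusted p of edgeR was 1.0 for every member here. DESeq2 gave an adjusted p under 0.05 for 3 members (Eln, Thbs1 and Tnc), beside 0.797% of the tested genes, and for 2 members (Thbs1 and Tnc) in BLM against Con, beside 0.873%.

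Whether the effect of bleomycin differed between the genotypes was tested as an interaction. In edgeR 0 members were called, beside 2.82% of the tested genes at an unadjusted p under 0.05, and DESeq2 also called 0, beside 4.79%. The interaction was -1.51 ± 0.91 on the log2 scale for Thbs1 (edgeR, adjusted p = 1.0), -3.30 ± 2.18 for Vcan (adjusted p = 1.0) and -1.15 ± 0.82 for Fn1 (adjusted p = 1.0). A negative value is a smaller rise in the mice labelled as p300-deleted. For Fn1 it was -1.498 ± 0.69 without BLM 3 (adjusted p = 1.0), a call not made with all libraries, beside 4.63% of the tested genes. For Eln it was -0.05 ± 1.68 (adjusted p = 1.0). Fbn1 and Postn had positive values, of 3.72 ± 2.87 (adjusted p = 1.0) and 3.38 ± 4.06 (adjusted p = 1.0). Fbn1 was called in the interaction without KO 2, the only KO library in which it was counted, and Vcan without KO 3. The p-values that missed the threshold do not show that the genotypes responded alike.

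Markers of other cells moved with several of these results. The 8 members other than Fn1 and Tgfbi summed to 55.1 to 321 CPM in Con, 868 to 1654 CPM in BLM, 63.6 to 109.9 CPM in KO and 213 to 563 CPM in KOBLM, and the summed fibroblast markers given above were likewise highest in BLM. In BLM 3 that sum came from Col1a1, Col1a2 and Col3a1 alone, and the other 11 markers, Dcn and Pdgfra among them, had 0 counts. Those 11 summed to 32.2 to 137.2 CPM in Con, to 248 and 284 CPM in BLM 1 and BLM 2, to 21.8 to 102.3 CPM in KO and to 32.0 to 244.3 CPM in KOBLM. Of the 14 fibroblast markers, Lum and Tcf21 were at 0 in every Con, BLM and KO library. The 6 smooth muscle markers summed to 17.5 to 44.0 CPM in Con to 61.8 to 97.4 CPM in BLM, to 20.99 to 40.5 CPM in KO and to 37.2 to 169 CPM in KOBLM, with Cnn1 at 0 in Con and BLM. Myh11 made 45.6 of the 61.8 CPM in BLM 3, where Acta2 stood at 6.64 CPM, against 12.2 CPM in Con 3. The 7 platelet markers summed to 77.2 to 98.4 CPM in Con and to 1147, 298 and 0 CPM in BLM 1, BLM 2 and BLM 3. Pf4 made 1071 CPM of the sum in BLM 1, while Ppbp was at 19.1 to 42.1 CPM in Con and at 12.7, 0.792 and 0 CPM in BLM. Macrophage markers summed to 11732 to 25031 CPM in Con, 2431 to 13901 CPM in BLM, 13260 to 40731 CPM in KO and 9183 to 21790 CPM in KOBLM. BLM 3, Con 2 and KOBLM 1 held the lowest sum of their group and also its lowest Fn1 and Tgfbi. In KO the library with the lowest sum, KO 2, held the highest Fn1 (1062 CPM) and Tgfbi (836 CPM) of its group. KO 3, with the highest sum, held 517 and 551 CPM. The part of these cells in the members' values was not tested.

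**Figure D4:**
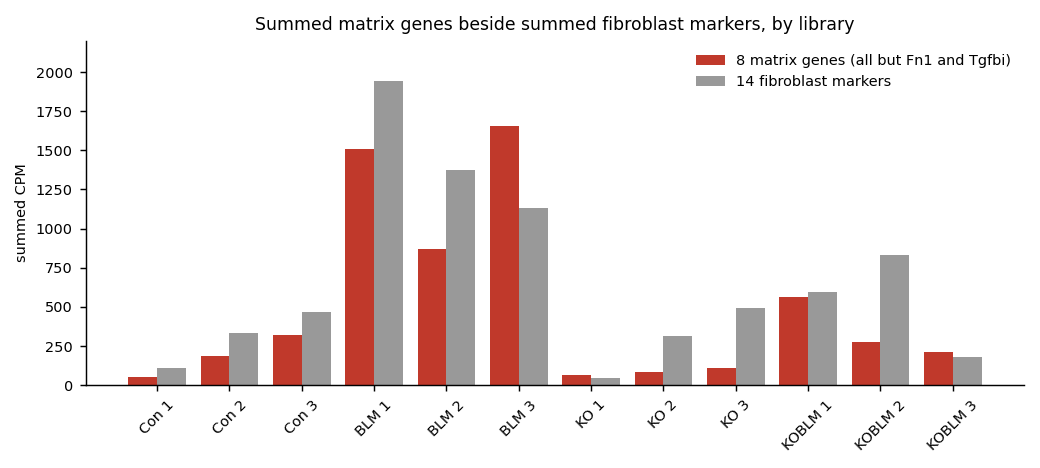
Summed CPM of the 8 members other than Fn1 and Tgfbi (red bars) and of 14 fibroblast markers (grey bars) in each of the 12 libraries. The red bars of the 3 BLM libraries reach 868 to 1654 CPM and the grey bars 1134 to 1942 CPM, above those of the KOBLM libraries, which reach at most 563 and 834 CPM.

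Genes related to the members by family or pathway gave few calls, in 4 lists of genes from the same edgeR fit. Beside these lists, the shares of all tested genes called in either direction were 4.27% in BLM against Con and 3.16% in KOBLM against BLM. They were 1.44% in KO against Con, 1.69% in KOBLM against KO, 4.47% averaged over genotypes and 2.82% in the interaction. Without BLM 3 the first 2 were 5.45% and 3.34%. Of 13 tested genes among other thrombospondins, tenascins, CCN proteins and hyaluronan partners, 0 were called in BLM against Con, with a median log2 fold change of 2.09. Without BLM 3, 19 of these genes were tested, and 2 (Sparcl1 and Wisp2) were called higher in BLM against Con and 3 (Sparcl1, Wisp1 and Wisp2) lower in KOBLM against BLM. Wisp1, a CCN protein of fibroblasts, was called lower in KOBLM than in BLM, from 17.7, 14.6 and 8.79 CPM to 0 counts in each KOBLM library. Spp1, which encodes osteopontin, was called higher in KO than in Con, but the difference came from KO 2, with 8300 CPM, against 103.2 and 192.4 CPM in KO 1 and KO 3 and 113.6 to 319 CPM in Con. Sparcl1, the closest relative of Sparc, was called higher after bleomycin averaged over genotypes, with a log2 fold change of 1.499 ± 0.68 (edgeR, adjusted p = 1.0). Thbs2 and Tnn were called in the interaction at no more than 45 counts in any library.

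Among 23 tested partners of elastic fibres and microfibrils, Fbln2, which encodes fibulin 2, was the gene called. It stood at 48.3, 14.1 and 101.7 CPM in BLM and at 0 counts in all 3 KOBLM libraries (adjusted p = 1.0), and was also called in the interaction. Without BLM 3, Fbln2 was still called lower in KOBLM against BLM. It was then not called in the interaction, where Emilin2 was called lower instead. The list's median log2 fold change was 0.41 in BLM against Con, where Emilin2 was called higher without BLM 3. Of 20 tested receptor genes, Cd44, the hyaluronan receptor, was called lower in BLM than in Con, at 762, 1160.0 and 65.0 CPM against 2938 to 4036 CPM (log2 fold change -2.23 ± 0.77, adjusted p = 0.995), and higher in KOBLM than in BLM (1.64 ± 0.75, adjusted p = 1.0), in both cases also without BLM 3, where Sdc4 was called higher in BLM than in Con. Averaged over genotypes, the syndecan gene Sdc1 was called higher (2.98 ± 1.26, adjusted p = 1.0), and Cd44 and the integrin gene Itga8 lower. Itga8 had at most 238 counts in a library and was not called without BLM 3. In that fit Itga2 and Itgb8 were also called higher, and Cd47 lower. Itgb6, whose integrin binds latent TGF-β, was called lower in KO than in Con on counts of 0, 65 and 359 in Con and 0 in KO. 

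Of 9 tested genes for enzymes that link or cleave these proteins, Adamts1, a protease that cuts versican, was called in the most comparisons. It was at 15.3, 49.1 and 54.3 CPM in Con, with 0, 5 and 0 counts in KO, and at 91.3, 27.2 and 18.6 CPM in KOBLM. KO lay below Con without overlap, as did 7.56% of the tested genes. KOBLM lay above KO without overlap, as did 3.95%. It was called lower in KO against Con and higher in KOBLM against KO, and was called in the interaction too (edgeR, adjusted p = 1.0 in each). BLM, at 79.9, 23.6 and 80.7 CPM, overlapped Con. Adamts5, another versican-cutting protease, was called higher after bleomycin averaged over genotypes with at most 74 counts in a library. Without BLM 3, F13a1 was called higher and Tgm2 lower in BLM against Con, and Tgm2 higher in KOBLM against BLM.

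The genes whose levels ran most like those of each member were found among 8943 genes with a mean of at least 10 CPM, by Pearson's r of log2 CPM over the 12 libraries. The libraries differ in depth and cell makeup, which all genes of a library share, so the values are descriptions. Tnc ran with Col11a1 (r = 0.976) and Timp1 (r = 0.932), Eln with Timp3 (r = 0.881) and Col3a1 (r = 0.878), and Sparc with Loxl2 (r = 0.897) and Arih2 (r = 0.896). Tnc had 0 counts in 7 of the 12 libraries, and both Tnc and Sparc were highest in BLM 3. Their r without BLM 3 was not computed. Fn1 ran with Cd63 (r = 0.964) and Slc36a2 (r = 0.901), Tgfbi with Fth1 (r = 0.948) and Cstb (r = 0.946), Vcan with Snhg9 (r = 0.931) and Stab1 (r = 0.927), and Thbs1 with Ifitm3 (r = 0.919) and Lrmp (r = 0.904). Postn ran with Fgfr3 (r = 0.932) and Pias3 (r = 0.888), Fbn1 with Impdh1 (r = 0.906) and Cnot11 (r = 0.900), and Fbln1, counted in few libraries, with Rad9a (r = 0.792) and Lamtor1 (r = 0.694).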

How the data were processed

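RNA of cells sorted as ATII cells from 12 mice was sequenced with a QuantSeq 3′ kit as single-end reads of 75 nt. The values deposited by the authors are raw counts of reads per gene symbol in each library, not normalized, and no other unit was used. The submitters' processing notes name mm10, Bowtie2 and edgeR; their settings, the annotation and the treatment of strand are not given in the sources used here. Entries that repeat a symbol (79 entries of 35 symbols) were summed, and CPM were taken over the library total (7005005 to 11153154).

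Genes were filtered with filterByExpr (minimum count 10, minimum total 15), which kept 13054, scaled by TMM and fitted with the quasi-likelihood model of edgeR 4.0.16 in R 4.3.3, with the 4 groups in 1 model (8 residual degrees of freedom). The common dispersion was 2.08. Tests were two-sided, calls required a 1.5-fold change with an unadjusted p below 0.05, the threshold of the study, and adjusted p are Benjamini-Hochberg values over all tested genes. Exact permutation tests compared the CPM of single members. Replicates are separate mice, and p-values set differences between groups against the spread between mice. In edgeR that spread was estimated over all 4 groups, with information shared across genes. The edgeR steps were tested on simulated data. Alternatives were DESeq2 1.42.0, other scalings, no filter, a replicate block, an adjusted p and the omission of each library.

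The members, gene lists and marker lists were chosen with earlier results of these data known. Genes named are the 10 members, Ep300, the called genes of each list with the smallest p (at most 2 per direction and comparison), and the 2 genes most like each member. Markers given as examples, and list genes named for the fit without BLM 3 alone, were picked with their values known. Gene positions are from GENCODE M21 (GRCm38), promoters from RefSeq (GRCm38.p6). Figures were drawn with matplotlib 3.10.9 in Python 3.11.15.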

Additional observations from a re-analysis of the deposited data

Results flagged for a closer look

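Single libraries stood far from the other 5 of their treatment in 6 of the 19 sets of 6 libraries examined. The cut-off used flags about 1 set in 20 by chance only where values are normally distributed. Sets of CPM that hold zeros and both genotypes need not be, so the number of flags cannot be set against that rate. Among the bleomycin-treated libraries, BLM 3 was far above the rest for Tnc, with 185.1 CPM, and for Sparc, with 939.8 CPM. Both genes are given with and without this library in the report. Among the PBS-treated libraries, KO 2 was far above the rest for Fn1, with 1062 CPM, and KO 1 for Fbln1, with 5.37 CPM. Con 3 was far above the rest for Postn, with 23.9 CPM, and for Fbn1, with 84.0 CPM.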

How the results depend on the processing

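No call passed an adjusted p under 0.05 in edgeR, so that setting left 0 members in each comparison. With other scalings, no filter, DESeq2 or the replicate block, 79 of 80 values for the 16 called fold changes kept their call and direction, and 113 of 132 did so when a library was left out. The other 20 kept their direction, and 10 of them were Fn1 averaged over genotypes, lost with the replicate block and without any Con library, BLM 1 or 2, KO 1 or 3, or KOBLM 2 or 3. No pairing of libraries by replicate number was seen (0 of 18 same-number pairs had a correlation above 0.1, and 4 of 12 libraries correlated best with their own number). What the numbers stand for is not given in the sources used here. With the block, 1 member instead of 0 was called in KO against Con (Eln, -2.44), 5 instead of 6 averaged over genotypes, and the Eln interaction was 1.17. The counts below leave out libraries of the compared groups. In KOBLM against BLM, 3 members were called lower with no filter and 3 with DESeq2 (beside 2.17% and 3.26% of all tested genes), and 0 to 3 with a library left out (0 without BLM 1, 3 without BLM 3, 2 without KOBLM 1). In KO against Con, 1 was called with no filter and 1 with DESeq2 (beside 1.31% and 2.87%), 0 to 1 with a library left out (1 without Con 1, 1 without KO 2, in both Fbn1), and 2 without BLM 3, outside that comparison. In KOBLM against KO, 5 were called higher with no filter (175 of 17480 genes), and 2 to 5 with a library left out (5 without KOBLM 3). With a library left out, 4 to 6 were called in BLM against Con, 5 to 7 averaged over genotypes, and 0 to 1 in the interaction (1 without BLM 3, KO 2 or KO 3). Fold changes that turned direction were not called. Their log2 ranges with a library left out were -0.57 to 0.27 for Fn1 in KOBLM against BLM and -0.17 to 1.01 in KOBLM against KO, -2.69 to 0.088 for Postn in BLM against Con and -0.58 to 2.40 averaged, and -0.77 to 0.076 for Thbs1 and -0.51 to 1.54 for Vcan in KO against Con. For Tgfbi they were -0.14 to 0.88 in BLM against Con, -0.089 to 0.82 in KO against Con, -0.28 to 0.74 in KOBLM against BLM, -0.014 to 0.70 in KOBLM against KO and -0.66 to 0.36 in the interaction. The Eln interaction ran from -0.94 to 0.73, and was 0.15 with library size alone. That scaling moved the median of all genes in KO against Con from -0.09 to -0.21. The cause of these changes was not tested. Fold changes of Fbln1, counted in 1 library per group, and of Tnc where both groups had 0 counts are left out of these ranges. Differences in Fbln1, at 0 counts in 8 libraries, and in Postn, which ran from 0 to 23.9 CPM, were not detectable at this depth and spread.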
